A study of Mus musculus with 9 samples.

Results

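SAFB1, a scaffold attachment factor, is a nuclear protein that binds RNA. The peaks described here are places where RNA recovered with it came from DNA far from every gene of the annotation GENCODE M21. They are the 1814 of 30998 SAFB peaks in the authors' list (5.85%, 95% Wilson interval 5.60 to 6.12) whose midpoint lay in no GENCODE M21 gene on either strand and more than 10 kb from the nearest end of every gene. The nearest of them lay 10007 bases from a gene, and the nearest peak left out lay 9998 bases away. The 125 peaks within 1 kb inside that limit had a median width of 467 bases, and the 163 within 1 kb outside it had 586. The 1814 peaks are called gene-distant peaks below, and distances are to GENCODE M21 genes unless another annotation is named.

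RNA copied from stretches between genes is known from all mammalian cells. It includes long non-coding RNAs that an annotation has not recorded, RNA polymerase II running past the end of a gene, distant starts of known genes, and short-lived transcripts of enhancers, which are often made on both strands. Much of it stays in the nucleus and is short-lived. A peak list with strands can show where such RNA was bound and in which direction it runs, while the ends and the splicing of the RNA cannot be read from it.

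The series used RNA immunoprecipitation and sequencing (RIP-seq) of mouse embryonic stem cells (strain CAST/B6 Male Rosa26-RMCE), all given doxycycline for 3 days. The libraries were made with a FLAG antibody from Safb and Safb2 double-knockout clone 13 with a SAFB1 plasmid (1 library) or with an eGFP plasmid (1), with a SAFB1 antibody from double-knockout clones 4 and 13 (2), with the same antibody from WT cells (3, from the parent line and clones 20 and 44) and with IgG from WT cells (2, from the parent line and clone 20). The genotype label of the library with the SAFB1 plasmid reads WT while its title names the double-knockout clone. The list holds positions only, with no value per library, so no antibody or genotype was compared, the depth behind a peak is unknown and nothing below has replicates. The cell type could not be checked against its markers for the same reason. Intervals of shares are 95% Wilson intervals and those of densities are exact 95% Poisson intervals. Both cover counting error only and treat peaks as independent, which neighbouring peaks of 1 transcript are not.

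Gene-distant peaks were spread over both strands, with 892 on the plus and 922 on the minus strand, and covered 1.12 Mb. About as many stood alone as stood in company. Where members of the same strand were at most 20 kb apart they were joined into groups, as candidate unannotated transcripts. This gave 299 groups of at least 2 peaks, which held 886 peaks (48.8%, 46.5 to 51.1), and 928 single peaks. No GENCODE M21 gene lay inside a group, which the limits nearly fix in advance. Members on either side of a gene have midpoints over 20 kb apart, so a gene usually splits a group.

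The gene-distant peaks nearest to a start annotated elsewhere are those for which sequence can be shown. RefSeq, on the same build (GRCm38.p6), annotates genes that GENCODE M21 lacks or draws shorter, and 2388 RefSeq promoter windows (250 bases before to 50 after a start, of 2024 genes) lay more than 10 kb from GENCODE genes. A gene-distant peak of the same strand overlapped 11 of these windows and one of the opposite strand 3. The windows below, from RefSeq, are the 6 of which a same-strand peak covered at least 200 of the 300 bases, so that they show RefSeq starts that lie under or next to a peak. This choice was made after the values were seen. The first pair lies in groups of at least 4 peaks and the others belong to single peaks. Capitals mark the bases under the SAFB peak, and each is printed 5′ to 3′ on the strand of the gene.
Gm39758: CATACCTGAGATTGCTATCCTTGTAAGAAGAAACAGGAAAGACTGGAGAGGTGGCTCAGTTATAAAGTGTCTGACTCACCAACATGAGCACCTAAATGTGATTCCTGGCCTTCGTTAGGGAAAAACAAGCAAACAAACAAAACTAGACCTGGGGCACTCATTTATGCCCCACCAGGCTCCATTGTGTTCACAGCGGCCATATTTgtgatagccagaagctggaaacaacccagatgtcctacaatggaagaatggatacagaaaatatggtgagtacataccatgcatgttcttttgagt
Gm34722: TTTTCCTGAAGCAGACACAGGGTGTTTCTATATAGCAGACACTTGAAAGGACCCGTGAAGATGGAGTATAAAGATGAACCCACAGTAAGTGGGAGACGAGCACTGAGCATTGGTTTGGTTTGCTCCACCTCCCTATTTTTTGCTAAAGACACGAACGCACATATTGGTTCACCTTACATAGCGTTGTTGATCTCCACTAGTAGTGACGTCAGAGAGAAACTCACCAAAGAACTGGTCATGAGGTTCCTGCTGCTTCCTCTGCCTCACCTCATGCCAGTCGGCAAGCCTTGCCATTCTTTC
Gm39252: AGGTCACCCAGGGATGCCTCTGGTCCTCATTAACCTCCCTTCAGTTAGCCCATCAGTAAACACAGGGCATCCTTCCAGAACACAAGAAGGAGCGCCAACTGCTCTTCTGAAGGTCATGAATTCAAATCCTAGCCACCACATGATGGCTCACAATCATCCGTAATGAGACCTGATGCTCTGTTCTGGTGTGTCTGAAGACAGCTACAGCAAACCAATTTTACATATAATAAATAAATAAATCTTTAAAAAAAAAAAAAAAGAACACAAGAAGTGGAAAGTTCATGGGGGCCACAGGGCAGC
Gm31276: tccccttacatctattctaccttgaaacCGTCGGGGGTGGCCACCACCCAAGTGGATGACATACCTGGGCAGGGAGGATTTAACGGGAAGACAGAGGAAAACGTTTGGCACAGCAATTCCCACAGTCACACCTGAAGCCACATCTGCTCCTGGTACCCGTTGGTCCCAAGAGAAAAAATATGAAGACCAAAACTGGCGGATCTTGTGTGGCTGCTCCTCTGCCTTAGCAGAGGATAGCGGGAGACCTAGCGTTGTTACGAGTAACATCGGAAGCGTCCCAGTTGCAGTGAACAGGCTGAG
Gm46780: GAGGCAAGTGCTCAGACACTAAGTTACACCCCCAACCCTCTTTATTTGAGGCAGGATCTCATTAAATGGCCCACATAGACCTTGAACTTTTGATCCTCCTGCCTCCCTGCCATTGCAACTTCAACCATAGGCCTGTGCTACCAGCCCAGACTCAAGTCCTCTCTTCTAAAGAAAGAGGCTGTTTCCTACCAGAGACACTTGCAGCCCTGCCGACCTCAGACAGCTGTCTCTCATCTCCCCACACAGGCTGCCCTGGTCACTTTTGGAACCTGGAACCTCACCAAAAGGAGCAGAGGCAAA
Gm46691: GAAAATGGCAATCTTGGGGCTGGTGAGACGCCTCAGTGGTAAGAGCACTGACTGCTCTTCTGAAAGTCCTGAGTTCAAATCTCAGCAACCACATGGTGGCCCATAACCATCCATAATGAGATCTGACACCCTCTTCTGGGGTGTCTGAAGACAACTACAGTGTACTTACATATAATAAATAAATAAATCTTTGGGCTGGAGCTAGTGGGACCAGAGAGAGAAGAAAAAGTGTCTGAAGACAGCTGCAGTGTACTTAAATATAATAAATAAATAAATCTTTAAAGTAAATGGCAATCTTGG
Gm39758 is a non-coding RNA gene of RefSeq, and its window is chr2:10320152-10320451 on the minus strand. The peak there was 339 bases wide and covered 204 bases of the window, all before the start, within a group of 10 peaks between Sfmbt2 and Itih5. The window of Gm34722, also non-coding, is chr5:114480174-114480473 on the minus strand. Its peak of 1632 bases covered the whole window, in a group of 4 peaks near Mvk, the mevalonate kinase gene of sterol synthesis. The window of Gm39252 is chr8:111754662-111754961 on the minus strand, 11.1 kb from Bcar1, an adaptor of focal adhesions, and lay wholly under a peak of 975 bases. The window of Gm31276 is chr13:113735901-113736200 on the plus strand, with 272 bases under a peak of 1348 bases that began 222 bases before the start. The window of Gm46780 is chr2:173290081-173290380 on the minus strand, 13.6 kb from Pmepa1, an inhibitor of TGF-beta signalling, wholly under a peak of 1163 bases. The window of Gm46691 is chrX:94140438-94140737 on the minus strand, wholly under a peak of 1036 bases. It lies 16.9 kb before the GENCODE start of Zfx, an X-linked zinc finger gene, and inside Zfx as RefSeq draws it.

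The 11 windows that same-strand peaks overlapped were searched on the gene's strand for 3 purine hexamers, which overlap each other and can lie in 1 run, and for an AT hexamer. The hexamer GAAGAA was found in 5 of the 11 windows, in 3 of them under the peak, against 12.6% of all 32851 windows in the table. The next, AGAAGA, was also found in 5 of 11, in 4 of them under the peak, against 14.0% of all windows. The third, AAGAAG, was again found in 5 of 11, in 3 of them under the peak, against 12.5% of all windows. The AT hexamer TATATA was found in 2 of 11, in both under the peak, against 5.67% of all windows. Counting from 1 at the 5′ end of the window, a run from base 25 to base 32 of Gm39758, under the peak, held all of the purine hexamers, and in Gm39252 the third of them began at bases 84 and 266. Gm31276 and Gm46780 held none of the hexamers. Purines made up 55.3% of the window of Gm39758, 54.0% of those of Gm39252 and Gm31276, 56.7% of that of Gm46691, 48.3% of that of Gm34722 and 44.3% of that of Gm46780, against a median of 50.3% over all windows. With 11 windows, these counts are a description only. Some stretches of the windows of Gm39252 and Gm46691 are alike nearly base for base, and a stretch of this kind recurs within Gm46691. Whether they are repeats of the genome was not checked, and their part in the peaks and in these counts was not tested. The comparison is with all windows, and those more than 10 kb from GENCODE genes were not searched apart from the rest.

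**Figure D1:**
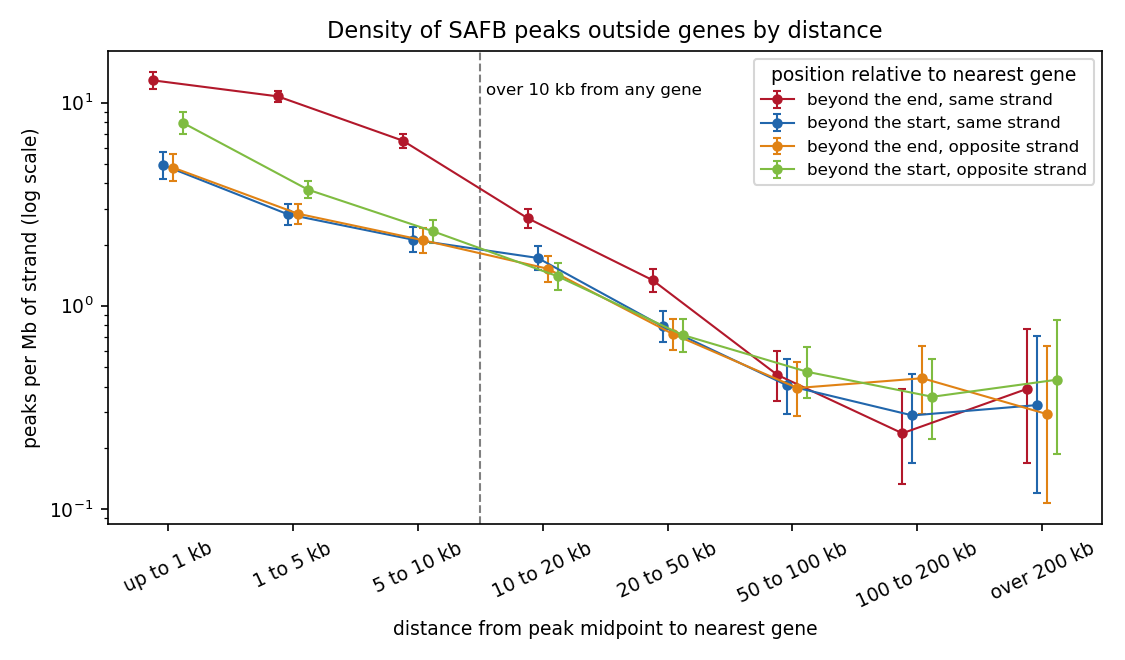
Density of SAFB peaks outside genes (peaks per Mb of strand, log scale) by distance from the peak midpoint to the nearest GENCODE M21 gene, split by side and strand; points are densities and bars exact 95% Poisson intervals. Peaks beyond the end of a gene on its own strand reached 2.70 per Mb at 10 to 20 kb and 1.34 at 20 to 50 kb, above the other 3 positions, and no such order was seen from 50 kb on.

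The density of peaks fell with distance from genes and then levelled off. Gene-distant peaks numbered 0.939 per Mb of strand (0.896 to 0.983) over the 1931 Mb that lay more than 10 kb from genes, counting each strand. Sense peaks numbered 16.2 per Mb of gene body. Between genes the density was 7.67 per Mb up to 1 kb from a gene, 5.05 at 1 to 5 kb, 3.27 at 5 to 10 kb, 1.84 (1.72 to 1.96) at 10 to 20 kb, 0.899 (0.829 to 0.973) at 20 to 50 kb, 0.431 (0.372 to 0.498) at 50 to 100 kb, 0.330 (0.262 to 0.410) at 100 to 200 kb and 0.359 (0.238 to 0.519) beyond 200 kb. The intervals of the last 3 overlap. The median distance of gene-distant peaks was 20.1 kb (quartiles 13.7 and 36.5), 295 lay over 50 kb, 109 over 100 kb and 28 over 200 kb from any gene. Unsequenced stretches of the assembly were not taken out of the space between genes, which lowers densities where they lie.

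Peaks beyond the end of a gene on the gene's own strand were the most frequent kind up to 50 kb. They made up 35.7% of gene-distant peaks (648, 33.5 to 38.0) in 25.8% of the space. Peaks before the start of a gene on its strand made up 22.2% (403), peaks beyond the end on the opposite strand 21.9% (397) and peaks before the start on the opposite strand, the divergent position, 20.1% (365). Of the peaks within 10 kb of genes, 50.2% (48.7 to 51.6) lay beyond the end on the same strand. At 10 to 20 kb this position held 2.70 peaks per Mb (2.41 to 3.00), against 1.72 (1.49 to 1.97) before the start on the same strand, 1.52 (1.31 to 1.75) beyond the end on the opposite strand and 1.40 (1.19 to 1.62) in the divergent position. At 20 to 50 kb it held 1.34 (1.17 to 1.52), against 0.791 (0.661 to 0.939), 0.727 (0.607 to 0.863) and 0.718 (0.594 to 0.860) in the same order of positions. From 50 to 100 kb the densities were 0.456 (0.340 to 0.600), 0.405, 0.393 and 0.472, with overlapping intervals. The divergent position, which held 7.94 per Mb up to 1 kb from genes, was not above the other positions at 10 to 20 kb.

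The genes that gene-distant peaks followed were often genes that held SAFB peaks themselves. The nearest protein-coding gene was a median of 40.6 kb away (quartiles 17.9 and 123). Of the 563 peaks beyond the end of that gene on its strand, 313 (55.6%, 51.5 to 59.6) had a gene with at least 1 sense peak. The share was 41.4% (37.0 to 46.0) before the start on the same strand, 37.2% (32.1 to 42.5) beyond the end on the opposite strand and 46.1% (41.6 to 50.7) in the divergent position. At 10 to 20 kb past the end on the same strand it was 63.8% (141 of 221, 57.3 to 69.9), against 41.2% (33 of 80, 31.1 to 52.2) on the opposite strand. Over 50 kb away the order differed, with 49.7% (92 of 185, 42.6 to 56.9) past the end on the same strand, 40.8% (69 of 169, 33.7 to 48.4) past the end on the opposite strand and 52.2% (120 of 230, 45.7 to 58.5) in the divergent position. Over all protein-coding genes, 26.2% (5750 of 21951) held a sense peak, and over the space more than 10 kb from genes, 33.6% lay nearest to such a gene. Several peaks can share a gene, and the 221 peaks above lay near 176 genes. How strongly these genes were transcribed was not measured here, and its part in these shares was not tested.

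The nearest annotated gene of any kind was protein-coding for 38.9% of gene-distant peaks, a pseudogene for 27.7%, a long non-coding gene for 24.5% and a small RNA or other gene for 8.88%. These kinds make up 39.6%, 24.4%, 24.1% and 11.9% of the 55450 annotated genes. The latter shares count genes and not the space nearest to each kind, which was not computed. Likeness between them and the shares of peaks therefore has no reading here. With pseudogenes and small RNA genes left out of the annotation, 2403 peaks lay more than 10 kb from genes. Of this larger set, 36.7% lay beyond the end of the nearest gene on its strand.

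RefSeq places a gene over some of these peaks. It covered the midpoint of 282 gene-distant peaks (15.5%, 14.0 to 17.3) with 194 genes, and a peak can lie in several of them. The strand was the same for 143 and the opposite for 51, and for 88 the table used here gives none. For 178 peaks GENCODE M21 has no gene with the symbol of any RefSeq gene there, and for 104 it has one. With RefSeq genes added to the annotation, a choice made after the data were seen, 1318 peaks lay more than 10 kb from genes. Of the 282, 195 lay in a non-coding RNA gene of RefSeq, 68 in a protein-coding one and 24 in a pseudogene. Apex2 covered 13 of these peaks, Tmem29 9, Gm36470 and Gm7240 6 each, and Gm12610, Gm30085, Gm34061, Gm39665 and Mogat1 5 each. Elavl2, an RNA-binding protein gene of neurons and germ cells, covered 4 on its own strand.

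**Figure D2:**
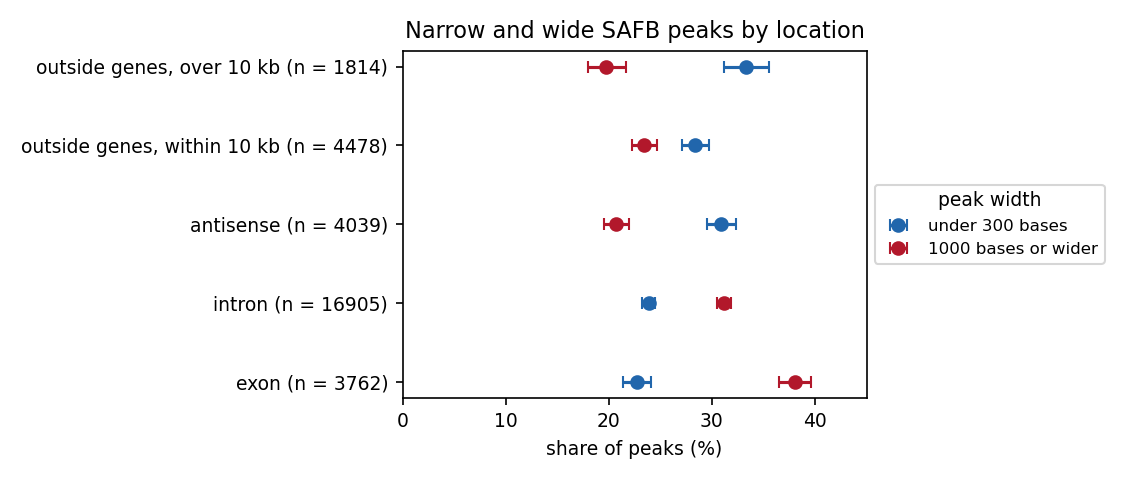
Share of SAFB peaks under 300 bases wide (blue) and at least 1000 bases wide (red) by location of the midpoint, in percent with 95% Wilson intervals. Gene-distant peaks had 33.4% narrow and 19.7% wide peaks, and intronic peaks 23.9% and 31.2%.

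Gene-distant peaks were narrower than intronic and exonic peaks, and differed little from antisense peaks in median width. Their median width was 457.5 bases (quartiles 225 and 859.5, range 74 to 4100), against 527.5 for peaks outside genes within 10 kb, 480 for antisense, 631 for intronic and 775.5 for exonic peaks. Peaks under 300 bases made up 33.4% (31.2 to 35.6) of gene-distant peaks, 28.4% (27.1 to 29.7) of those within 10 kb, 30.9% (29.5 to 32.3) of antisense, 23.9% (23.2 to 24.5) of intronic and 22.7% (21.4 to 24.1) of exonic peaks. Peaks of at most 80 bases, close to the length of a read from the 75-cycle kits the submitters name, made up 5.07% (4.15 to 6.18) of gene-distant peaks, 2.59% (2.16 to 3.10) of those within 10 kb and 3.31% (3.05 to 3.59) of intronic peaks. Among antisense peaks this share was 2.25% (1.84 to 2.76), below that of gene-distant peaks, and among exonic peaks 1.30% (0.987 to 1.72). The median width was 415 bases over 20 kb from genes, 343 over 50 kb, 314 over 100 kb and 399 over 200 kb (28 peaks). What width measures depends on how peaks were called, which is not given in the sources used here.

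Peaks in groups were wider than single ones. Grouped peaks had a median width of 539 bases (quartiles 298.25 and 899.75) and single peaks 391 (134 and 780.75). Peaks of at most 80 bases made up 2.14% (1.38 to 3.33) of grouped and 7.87% (6.30 to 9.78) of single peaks. Peaks of at least 1000 bases were about as frequent in groups (20.9%, 18.3 to 23.7) as among single peaks (18.6%, 16.3 to 21.3).

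Among the 5 widest gene-distant peaks, a peak of 3575 bases at chr6:124476313-124479887 on the plus strand lay 13.3 kb from the start of Clstn3, a synaptic adhesion protein gene on the other strand, in a group of 3. Peaks of 2875, 2873 and 2832 bases followed, the first 13.2 kb past the end of the non-coding gene Gm14230, the next in a group of 6 and 30.1 kb before the start of Rbfox2, a splicing factor gene, and the last 13.5 kb past the end of Rbpj, the DNA-binding factor of Notch signalling, on the strand opposite to it. The 5 farthest peaks lay in gene deserts of chromosomes 18, 1 and 2. A peak of 140 bases on chromosome 18 lay 444 kb from any gene and 1272 kb from Dsc3, a desmosomal cadherin gene, and another of 455 bases lay 436 kb from any gene. Both belonged to a group of 4 whose peaks had a median width of 1092.5 bases. On chromosome 1 a pair of 824 and 76 bases lay 443 and 440 kb from the pseudogene Gm4854, and on chromosome 2 a single peak of 112 bases lay 434 kb from B230118H07Rik.

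**Figure D3:**
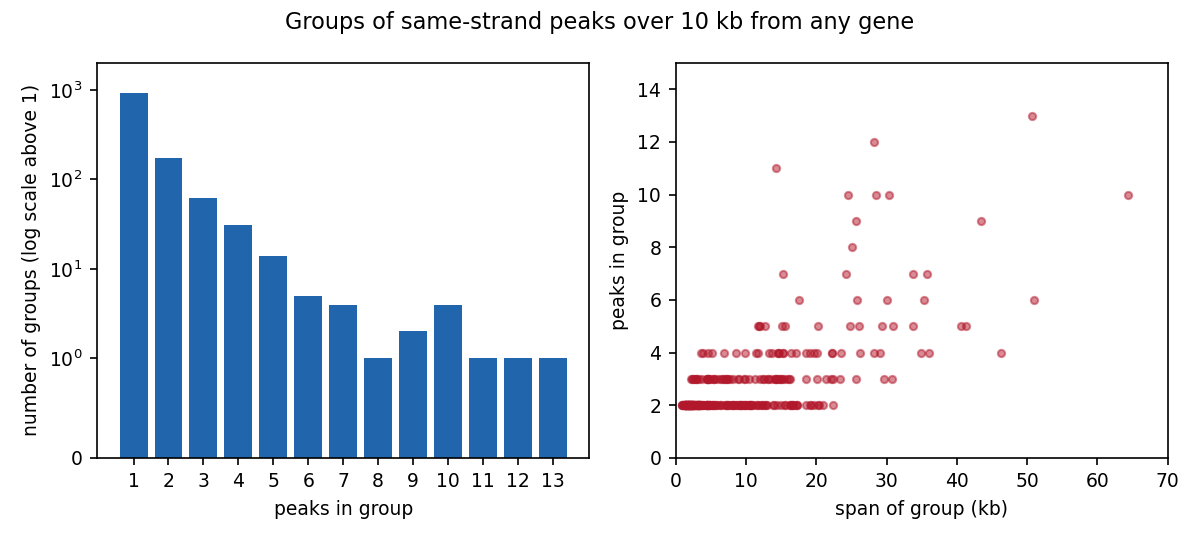
Left, number of groups by number of peaks in the group, with single peaks at 1 (log scale above 1); right, peaks in each of the 299 groups against its span in kb. Most groups held 2 or 3 peaks, and the largest held 13 over 50.7 kb.

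Groups were mostly small. Pairs numbered 173 and triples 62, 64 groups held at least 4 peaks (354 peaks) and 7 at least 10. Over all 299 groups the median span was 7.97 kb (quartiles 3.02 and 15.2, at most 64.3), and over the 64 larger ones 21.2 kb (14.4 and 29.5). Peaks covered a median of 17.6% of the span of the larger groups. Within groups, where gaps are at most 20 kb by definition, the median gap was 2.60 kb (quartiles 0.690 and 7.01). Over all gene-distant peaks, consecutive peaks of 1 strand were a median of 754 kb apart. The groups lay on the plus strand in 148 cases.

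The names of the peaks hold a running number on each strand, and most numbers are missing from the list. If each number stands for 1 call, the 299 groups spanned 1416 calls, of which 886 (62.6%, 60.0 to 65.1) were in the list. The 64 groups of at least 4 spanned 598 calls, of which 354 (59.2%, 55.2 to 63.1) were kept, and in 11 of them every call was kept. Since groups were formed from kept peaks that lie close together, these shares are a description and not a measure of strength. The first and last call of a group are kept by construction. Over the whole list the kept share is lower, since most numbers are missing, and its value was not computed.

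Some groups were connected to annotated genes by further peaks. A group was linked to a gene where further same-strand peaks, none more than 20 kb apart, led from it to a peak inside a gene of the same strand. Of the 299 groups, 45 were linked to a gene upstream, 15 to a gene downstream and 239 to neither. Of the 64 larger groups, 17 were linked upstream, 1 downstream and 46 to neither. The linked upstream genes of larger groups included Apex2, Gm40040 (for 2 groups), Gm29895 (for 2), Opa1, Lyplal1, Gm30085, Zscan25, Gm41230, Gm49220, Btg1, Triml1 and Gm3333.

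Of the 299 groups, 35 held a gene-distant peak of the opposite strand within their span. In 13 such a peak lay within 10 kb before the start, the position of a divergent transcript. Of the 928 single peaks, 25 held an opposite peak within their width and 52 had one before their start, so this position was not particular to groups. Longer spans leave more room for an opposite peak within them. Of the 7 groups of at least 10 peaks, 4 held an opposite peak within their span and 0 had one before their start. RefSeq genes overlapped 70 groups.

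**Figure D4:**
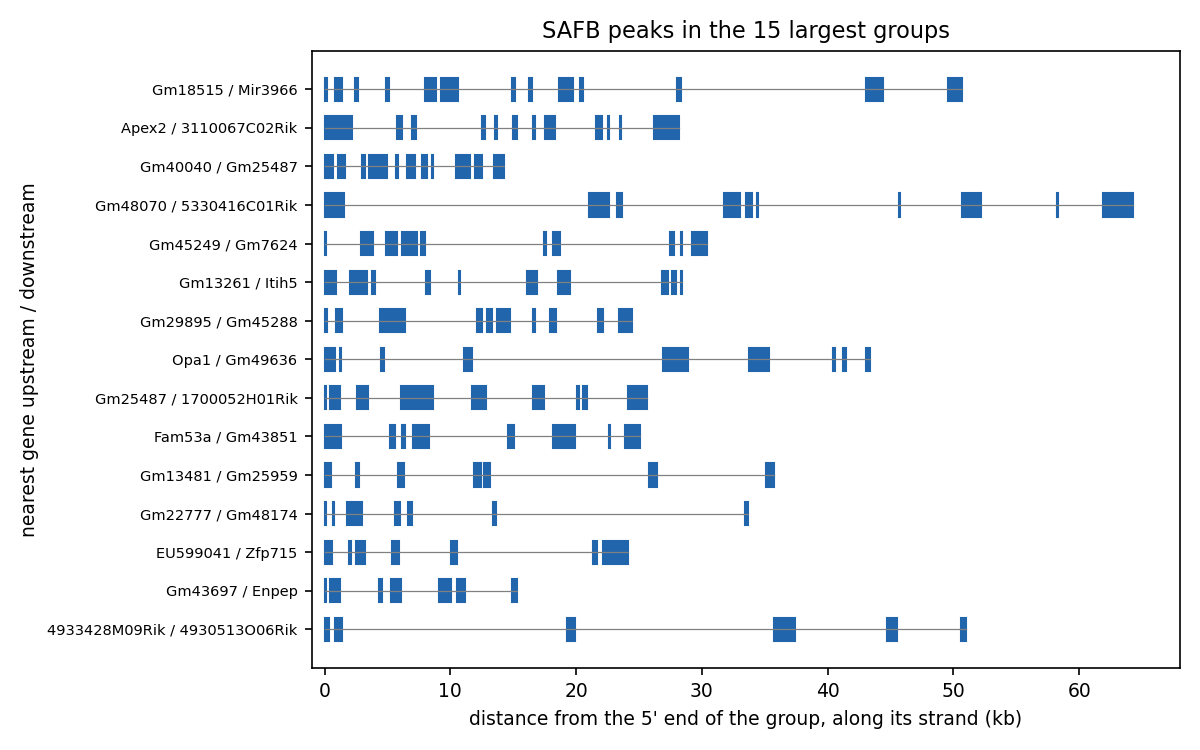
Positions of SAFB peaks (blue blocks, drawn to width) in the 15 groups with most peaks, as distance in kb from the 5′ end of the group along its strand; labels give the nearest gene upstream and downstream. The group between Gm48070 and 5330416C01Rik spans 64.3 kb with 10 peaks, and that between Gm40040 and Gm25487 spans 14.3 kb with 11.

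The largest group held 13 peaks over 50.7 kb on the plus strand at chr10:97289257-97339958. It lies between Btg1, an antiproliferative gene 666 kb upstream, and Dcn, which encodes the matrix proteoglycan decorin, 140 kb downstream, both on the same strand as the group. The nearest annotated genes were the pseudogene Gm18515, 46.0 kb upstream, and the microRNA gene Mir3966, 83.5 kb downstream. Its peaks were 196 to 1349 bases wide, and no RefSeq gene covered it. The group was linked to no gene.

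On the X chromosome, 12 peaks spanned 28.2 kb of the minus strand (chrX:150479966-150508183), starting 11.3 kb past the end of Apex2, a DNA repair endonuclease gene, on the same strand. The group was linked to Apex2, and the RefSeq gene Apex2 spans all 12 peaks, with Tmem29 over the 8 most downstream of them. Peaks of 2153 and 2058 bases marked its upstream and downstream edges, and the 10 between them were 74 to 755 bases wide.

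The densest of the 15 groups with most peaks lay on chromosome 3, in the neighbourhood of Platr4, a pluripotency-associated non-coding RNA. It held 11 peaks in 14.3 kb of the minus strand (chr3:41451901-41466163), or 0.771 per kb, and peaks covered 47.0% of it. Its widths were 77 to 1423 bases, and all 11 calls between its first and last peak were kept. A group of 9 peaks over 25.7 kb followed downstream on the same strand (chr3:41405367-41431030), with peaks up to 2526 bases and 32.7% of its span covered. Only the small nucleolar RNA gene Gm25487 is annotated between these groups, and both were linked upstream to Gm40040, a non-coding gene of the same strand. With a further pair and a single peak on the minus strand and 2 peaks on the plus strand, 25 gene-distant peaks lay nearest to Jade1, a subunit gene of a histone acetyltransferase complex, over 174 kb. Jade1 lies on the plus strand, so 23 of the 25 were in the divergent position to it.

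Chromosome 8 held several large groups. On the plus strand, 10 peaks spanned 24.5 kb (chr8:78072722-78097193) and 5 more spanned 15.1 kb (chr8:78118589-78133668), both linked to the non-coding gene Gm29895 upstream. All lay before the start of Ttc29, a gene of the sperm flagellum, which held no sense peak and to which 19 gene-distant peaks lay nearest. Also on the plus strand, 10 peaks spanned 30.4 kb (chr8:65211451-65241838) from 26.9 kb past the pseudogene Gm45249. They lay 81.9 kb from the start of BC030870 on the other strand, with 2 peaks of the opposite strand inside their span. Also on the plus strand of chromosome 8, 16.7 kb from the small nuclear RNA gene Gm25813 and 1191 kb from Aga, a lysosomal enzyme gene, 4 peaks within 3.57 kb (chr8:52316699-52320264) gave the highest density of any group of at least 4, at 1.12 per kb.

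On chromosome 13, 10 peaks over 64.3 kb of the plus strand (chr13:97650519-97714807) made the longest group, with widths from 99 to 2390 bases and 29.4% of 34 calls kept. It lay 397 kb past Enc1, an actin-binding gene of neurons, and 45.3 kb from Gm10260. On the same chromosome, 7 peaks spanned 33.7 kb (chr13:56942196-56975888), 46.2 kb from the start of Trpc7, a cation channel gene, in the divergent position. The RefSeq non-coding gene Gm40962 of the same strand lies within the span and holds none of the peak midpoints. On chromosome 2, 10 peaks over 28.4 kb of the minus strand (chr2:10300224-10328660) lay between Sfmbt2, a Polycomb-related gene, and Itih5, an inhibitor heavy-chain gene, each transcribed from the plus strand. Here RefSeq annotates Gm31496 and Gm39758 and draws Gm13261 longer, all on the strand of the group. A further 7 peaks on chromosome 2 (chr2:47623704-47659442, minus strand) lay 1155 kb from Acvr2a, an activin receptor gene, with no RefSeq gene over them.

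Opa1, a GTPase of mitochondrial fusion, was followed by 9 peaks over 43.4 kb of its own strand (chr16:29666164-29709552), which started 11.3 kb past its end and were linked to it. On chromosome 5, 8 peaks over 25.1 kb of the minus strand (chr5:33472610-33497701) lay 103 kb past Fam53a and 38.6 kb before Nkx1-1, a homeobox gene of the same strand. Among zinc finger genes of chromosome 7, 7 peaks spanned 24.2 kb (chr7:43241244-43265395), and the RefSeq gene Gm35588 of the same strand held the midpoints of 2 of them. On the X chromosome, 6 peaks spanned 51.0 kb (chrX:139115334-139166313) between 4933428M09Rik and 4930513O06Rik, at 0.118 per kb the thinnest of the 15.

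The other dense groups held 4 peaks each. On chromosome 6 they spanned 3.83 kb of the minus strand (chr6:52527171-52530998), 15.2 kb past the end of Hibadh, an enzyme gene of valine breakdown, on its strand. On chromosome 4 they spanned 4.56 kb of the plus strand (chr4:137807114-137811670), in the divergent position 10.7 kb from Alpl, the tissue-nonspecific alkaline phosphatase gene, and opposite to the RefSeq gene Gm32079. On chromosome 16 they spanned 5.19 kb of the plus strand (chr16:94553598-94558789), 11.2 kb before the start of Dyrk1a, a dosage-sensitive kinase gene of the same strand, and 26.8 kb from Vps26c. In all 3, every call was kept.

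Around genes of pluripotency, gene-distant peaks were denser than around all protein-coding genes, which is a description, since the list was chosen with results of these data known. For 40 pluripotency genes, 49 peaks (2.70%, 2.05 to 3.55) had one of them as the nearest protein-coding gene, while these genes were nearest to 0.467% of the space. Their surroundings held 5.43 peaks per Mb of strand (4.02 to 7.18), against 0.939 (0.896 to 0.983) over all genes. At 10 to 20 kb the density was 26.4 (14 peaks, 14.4 to 44.2) against 2.95 (2.70 to 3.21), at 20 to 50 kb 11.5 (13 peaks, 6.14 to 19.7) against 1.58 (1.44 to 1.73), and beyond 50 kb 2.99 (22 peaks, 1.87 to 4.53) against 0.560 (0.522 to 0.600). The 49 peaks lay near 15 of the 40 genes, 10 of them near Klf5, and without Klf5 the share was 2.15%. Of the 49, 29 stood in groups. Within the genes themselves, 9 of 40 held a sense peak. For 99 developmental transcription factors, of which 31 held a sense peak, 27 peaks (1.49%, 1.02 to 2.16) had one of them as nearest protein-coding gene, in 2.46% of the space, or 0.568 per Mb (0.374 to 0.827). Activity of these genes was not measured here, and its part in the counts was not tested.

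**Figure D5:**
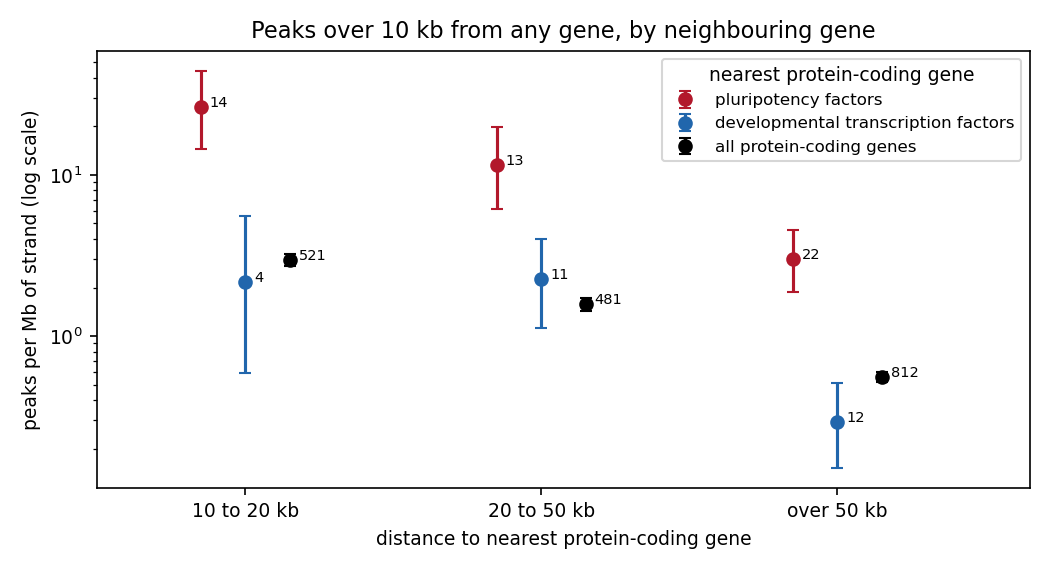
Gene-distant peaks per Mb of strand (log scale) by distance to the nearest protein-coding gene, where that gene is a pluripotency factor (red), a developmental transcription factor (blue) or any protein-coding gene (black); bars are exact 95% Poisson intervals and figures beside points are numbers of peaks. Pluripotency genes reached 26.4 per Mb at 10 to 20 kb, against 2.95 for all genes.

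Klf5, a Krüppel-like factor of self-renewal (chr14:99298691-99315036, plus strand), had 10 gene-distant peaks and 1 sense peak of its own. All 10 lay past its end on its strand, from 15.1 to 277 kb away, and were 433 to 1081 bases wide. The first pair (chr14:99329751-99338360) was linked to Klf5, and the later ones lay nearest to the pseudogenes Gm49219 and Gm49220 and the non-coding gene Gm41230. The last belonged to a group of 5 peaks (chr14:99591703-99603378) that was linked to Gm41230 and lay in the RefSeq gene Gm34061.

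Nanog and Dppa3, genes of the naive pluripotent state that lie close on the plus strand of chromosome 6, shared a group of 4 peaks in the space between them on the minus strand (chr6:122664810-122676190). Its peaks were 76 to 390 bases wide, 34.7 and 35.6 kb past the end of Dppa3 and 31.3 and 33.8 kb before the start of Nanog. Neither gene held a sense peak. Pou5f1, the gene of the core factor OCT4 (chr17:35506018-35510772, plus strand), had peaks of 873 and 602 bases on its own strand, 13.6 and 11.3 kb before its start, and no sense peak. Sox2, which encodes the partner of OCT4, had a peak of 325 bases on its own strand 103 kb past its end and one of 1372 bases on the other strand 108 kb past it, with a further peak of 334 bases on its own strand at 243 kb. Zfp42 (REX1), a marker of the naive state, was followed on its strand by peaks of 393 and 399 bases at 11.6 and 10.2 kb from its end, linked to its 1 sense peak.

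Nr5a2, a nuclear receptor gene on the minus strand of chromosome 1, had 6 gene-distant peaks, all on the plus strand. Of these 5 lay past its end, and 3 formed a group (chr1:136821553-136831267) of 598 to 1253 bases. Sall4 had 4 (3 of them divergent in 1 group over 11.2 kb), Lefty1, a Nodal antagonist, had 3 peaks from 10.7 to 12.4 kb before its start, 2 divergent and 1 on its strand, and Mycn had 3. Klf4 and Prdm14 had 2 each, and Fgf5 and Myc 1 each. In the list of non-coding transcripts, Platr4, Platr5, Platr26 and Platr27 were each the nearest gene of 1 peak, out of 20 listed.

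Among developmental transcription factors, Sall1, a zinc finger gene, had 6 gene-distant peaks from 16.1 to 37.7 kb away and Olig2, a helix-loop-helix factor of the neural lineage, had 5 from 15.5 to 37.3 kb, on both strands in each case. Neither held a sense peak. Eomes, Gata3 and Tcf4 had 2 each and 10 genes had 1 each. Within themselves, Tcf4 held 12 sense peaks and Gli3 held 17.

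Over all protein-coding genes, those nearest to most gene-distant peaks were Jade1 (25), Ttc29 (19), Dcn (15), BC030870 and Zfat (12 each), and Gm10260, Klf5, Opa1 and Zfp808 (10 each). The 12 peaks of Zfat, a zinc finger gene of lymphocytes with 2 sense peaks, all lay past its end on its strand, from 183 to 431 kb away, in 2 groups of 4 and 4 single peaks.

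The X chromosome, present as a single copy in these male cells, held 132 gene-distant peaks, 11.5% of its 1143 peaks, against 5.62% of the 29844 peaks of the autosomes. Relative to the space more than 10 kb from genes its density was 0.779 per Mb of strand (0.652 to 0.924), against 1.02 (0.967 to 1.07) on the autosomes. Among the autosomes the lowest density was 0.571 (chromosome 6) and the highest 1.52 (chromosome 8), and the X chromosome lay between these values. The Y chromosome held 6, at 0.0539 per Mb.

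Most wide spaces between genes held no gene-distant peak. Of 8340 spaces of 20 to 50 kb, 4.24% held at least 1, of 4108 of 50 to 100 kb 8.15%, of 2254 of 100 to 200 kb 8.30%, of 1156 of 200 to 500 kb 12.1% and of 130 above 500 kb 26.2% (19.4 to 34.3). Per length of the space in them more than 10 kb from genes, gene-distant peaks were densest in the narrowest spaces, at 2.71 per Mb of strand in those of 20 to 50 kb, 1.51 at 50 to 100 kb, 0.649 at 100 to 200 kb, 0.384 at 200 to 500 kb and 0.392 above 500 kb.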

How the data were processed

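The deposited data used here are the authors' single list of 30998 peaks, each with a position, a strand, a name and a score. The score the authors deposited is 500 in every peak and was not used. Per the submitters' processing notes the build was mm10, with STAR, Subread and featureCounts named without versions. The names of the peaks described here begin with wt_saf and pos or neg, which reads as a label of WT SAFB peaks by strand. Beyond these names, how peaks were called, filtered or pooled is not given in the sources used here. Depth and precision per peak are therefore unknown. Starts were read as counted from 0. Peaks were placed by their midpoint against GENCODE M21, an annotation of the same assembly. Members, groups, space between genes (bases between annotated genes, on each strand) and neighbours were computed with Python 3.11.15, pandas 2.3.3 and SciPy 1.17.1, and the distance and grouping steps were tested on simulated data. The 15 groups with most members, the 5 densest of at least 4, the 5 widest and 5 farthest peaks and the genes of 3 lists near members are named, and other genes were chosen after their values were seen. Some items that this rule names are not reported here. The members and lists were chosen with earlier results of these data known. RefSeq genes and promoters are of GRCm38.p6. No test between libraries was possible.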

Additional observations from a re-analysis of the deposited data

How the results depend on the processing

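The number of gene-distant peaks follows from the limit of 10 kb, at which it was 1814. It was 3050 at a limit of 5 kb, 913 at 20 kb, 295 at 50 kb and 722 with only peaks as wide as the list's median. Groups numbered 523 at a limit of 5 kb, 137 at 20 kb and 106 with only wide peaks, against 299. The share of peaks in groups, 48.8% as reported, was 43.3% with gaps of at most 10 kb, 54.1% at 50 kb, 44.0% at a limit of 20 kb, 36.0% with only wide peaks, 55.3% with strands joined, 57.3% with all same-strand peaks outside genes and 46.5% with RefSeq genes added to the annotation (chosen after the data were seen). The median width was 539 bases in groups and 343 over 50 kb from genes. Calls kept were 59.2% in groups of at least 4. The share of peaks nearest to a pluripotency gene was 1.86% at a limit of 20 kb (likewise chosen afterwards). The cause of these shifts was not tested. The other 17 of 35 alternatives stayed within 1.5 times the count or within the interval of the share. The limit for counts is wide. With RefSeq genes added the counts stayed within it, although they fell from 1814 to 1318 peaks and from 299 to 208 groups. Alternatives on the sequence of peaks were not run, because genome sequence was not used here. No paired analysis was possible because the results come from no test between libraries.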
